A study of Arabidopsis thaliana with 28 samples.

Results

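In Arabidopsis roots kept in darkness under normal air (21% oxygen), 151 probe sets for 150 genes had a lower signal after 48 h than after 2 h. Each of the 3 arrays of 48 h lay below each of the 3 arrays of 2 h, and the difference of the group means of log2(signal + 6) was -1.3 or less, a 2.46-fold or larger fall. The members are 151 of 13513 probe sets that stand for a single gene, with EXPB3 left out. The gene AT5G50740 is present through 2 probe sets, which measure the same gene. Of the 151 members, 29 have a gene symbol and 122 are known here by locus only.

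The roots came from seedlings (ecotype col2 in the labels) that had grown on upright agar plates with sucrose in a daily cycle of light and darkness. At 10 days after germination (the labels also call the seedlings 2 weeks old) they were placed in continuous darkness under a stream of nitrogen with CO2 and 1%, 4%, 8% or 21% oxygen, and roots were harvested after 0.5, 2 or 48 h. Total RNA of each root sample was hybridized to 1 Affymetrix array, 28 arrays in all, and the signal is a linear intensity that the authors scaled to the same trimmed mean on each array. The 1% and 4% groups held 2 arrays at each time, the 8% groups held 2 at 0.5 h, 2 at 2 h and 3 at 48 h, and the air groups held 3 at each time. Every sample carries a replicate letter from A to G. Array B of 8% oxygen at 48 h also bears the word control in its treatment text and was kept at 8% by its title. Without it, the members' median difference at 8% oxygen was -1.33 between 48 h and 2 h, 0.14 relative to air after 48 h, and -0.07 and 0.17 when 1% and 4% oxygen were set against 8%. Nothing in the labels says that replicates came from separate cultures, so p values measure the spread between these samples, and the number of arrays limits the precision. All groups were in darkness, and the 48 h groups were also older at harvest. Time in darkness, age and hour of harvest therefore cannot be told apart, and no roots kept in light were analysed here. Letters A and B occur only at 48 h, and C, D, E and G only at 0.5 or 2 h. Outside letter F, the replicate letter cannot be told apart from time. In whole roots, fewer cells of a type and less RNA per cell cannot be told apart either.

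Root growth rests on cell division at the tip and on the expansion of the new cells behind it. Expanding cells loosen and rebuild their walls with expansins, xyloglucan endotransglucosylase/hydrolases and endoglucanases. Both processes draw on sugar from the shoot, which needs light to make it, and on mitochondrial respiration, which needs oxygen.

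At the lowered oxygen levels, whose arrays had no part in the choice, the members' level separated the arrays by time. The 48 h arrays there carry letters A, B and F, as do the air arrays of 48 h. Letters D, E and F of the 2 h air arrays also recur among the lowered oxygen arrays of 2 h. Arrays of the same letter deviated together at 48 h, so the lowered oxygen arrays are not independent of the choice. The median of log2(signal + 6) over the 151 members lay between 4.94 and 6.33 on the 7 lowered oxygen arrays of 48 h, and between 6.87 and 7.39 on the 12 of 0.5 and 2 h, so these arrays did not overlap. The median over all 13513 probe sets lay between 4.94 and 5.43 on the 28 arrays. The 2 arrays of 1% oxygen at 48 h stood apart from each other, with a members' median of 4.94 on array A and 6.33 on array F. That range of 1.39 compares with at most 0.53 in the other groups. Of the 151 members, 132 were lower on array A than on array F, with a median difference of -1.19, against -0.06 over all probe sets, of which 55.8% were lower on A. The medians between 48 h and 2 h at 1% oxygen are therefore also given without array A or without array F.

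**Figure D1:**
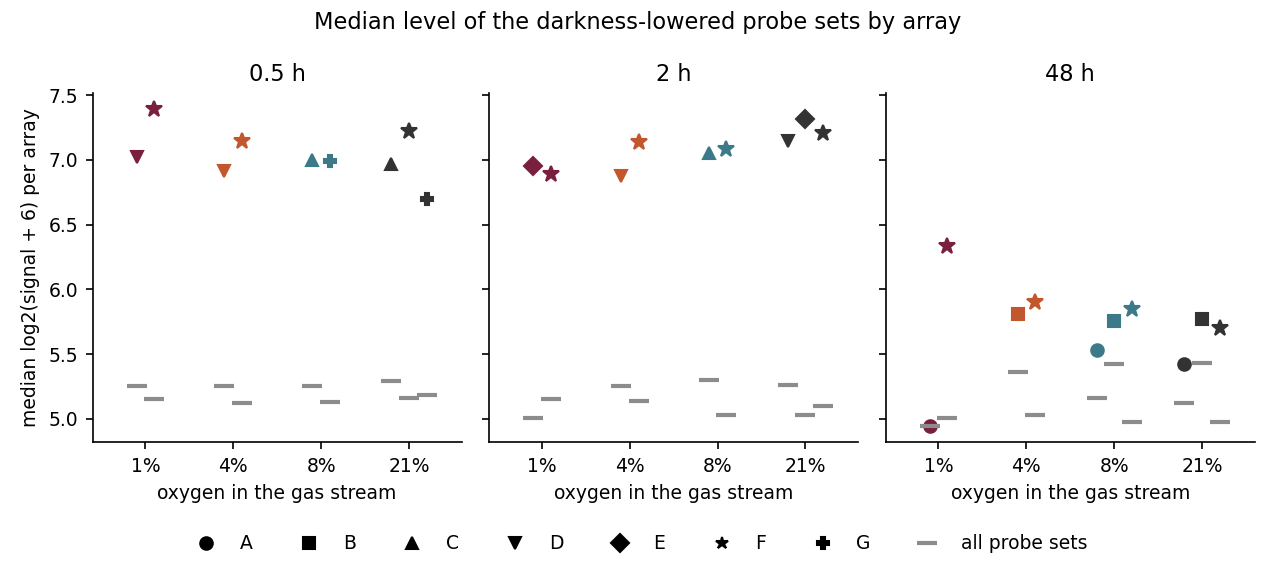
Median of log2(signal + 6) over the 151 members on each of the 28 arrays (coloured symbols, 1 shape per replicate letter) by oxygen level and time, with the median over all 13513 probe sets as grey bars. The 7 lowered oxygen arrays of 48 h lie below the 12 of 0.5 and 2 h, the air arrays of 2 h and 48 h chose the members, and arrays A and F of 1% oxygen at 48 h lie at 4.94 and 6.33.

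The tissue was checked with marker lists, of which few genes had a probe set of their own. RCA, the activase of the carbon-fixing enzyme of leaves, was the only named one of 20 leaf photosynthesis genes and had signals between 28.3 and 236.6. Its range was 29.8 to 167.7 at 1%, 48.9 to 166 at 4%, 34.1 to 101.3 at 8% and 28.3 to 106.9 at 21% oxygen after 48 h. The ranges of 2 h were 118.6 to 199.1, 38.3 to 94.7, 62.7 to 98.5 and 35.4 to 118.9 in the same order of oxygen levels. The ranges of 48 h and 2 h overlapped at all 4 oxygen levels, and the part of leaf RNA in the members' values was not tested. The root hair expansins EXPA7 and EXPA18, the named ones of 14 root hair genes, were set between 48 h and 2 h at each level. EXPA7 had log2 differences of -0.81, -0.78 and -0.99 at 1%, 4% and 8% oxygen, and EXPA18 had -0.51, 0.00 and -0.21, none of which passed the test. The median of the pair was -0.66, -0.39 and -0.60 at these levels and -0.72 in air, and the part of root hairs in the members' values was not tested.

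In normal air, the contrast that chose the members, the difference between 48 h and 2 h had a median of -1.51 and ran from -2.81 to -1.30145, with 19 members at -2 or below. The median member had a mean signal of 44.0 after 48 h and 141 after 2 h. After 48 h in air, 15 members averaged less than the pseudocount of 6, where log2 differences understate the change. In the limma fit 112 of the 151 passed an adjusted p of 0.05 in this contrast, where 3.11% of all probe sets did so downwards. Nothing is read from that count, since the same arrays chose the members. The 3 members just inside the threshold were UBC20 (-1.30145), AT1G62520 (-1.30158) and AT1G79470 (-1.30358). Just outside it were AT5G47455 (-1.29741), SAPX (-1.29595) and AT4G14695 (-1.29404), and EXPB3, left out by the rule, had -3.55.

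The largest fall in air belonged to AT4G30650 (chromosome 4, 14954204 to 14955114 in the TAIR10.1 assembly). Its signals were 44.0, 64.3 and 103 after 48 h in air, against 382, 501 and 656 after 2 h. At 1% oxygen its arrays A and F of 48 h gave 13.8 and 112, against 491 and 549 on arrays E and F of 2 h. The 48 h arrays lay below the 2 h arrays at both oxygen levels, with array A the lowest of all. The next largest falls in air were those of BZIP61 (-2.40), a basic leucine zipper transcription factor, AT5G59250 (-2.36), AT1G23100 (-2.36), AT3G53650 (-2.33) and AT3G61820 (-2.32). PDF2.1 (-2.21), a plant defensin, AT4G11190 (-2.19), EXPA15 (-2.15), an expansin, LCR68 (-2.13), a defensin-like cysteine-rich peptide, AT4G03100 (-2.11) and AT1G03820 (-2.11) completed the 12 largest.

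The first question was whether the members were also lower after 48 h at oxygen levels whose arrays had no part in their choice. At 1%, 4% and 8% oxygen, 148, 148 and 151 of the 151 members were lower after 48 h than after 2 h, and 145 were lower at all 3 levels. The median differences were -1.25, -1.0 and -1.29, against -0.02, 0.07 and 0.07 over all probe sets. The members' median of -1.51 in air comes from the contrast that chose them, where the threshold of -1.3 favoured large falls. In the limma fit 24 members fell at 1% oxygen, where 0.807% of all probe sets did, 7 at 4%, where 0.111% did, and 36 at 8%, where 0.747% did (adjusted p below 0.05 over 13513 probe sets). No member rose by this test at any of the 3 levels, where 0.451%, 0.126% and 0.747% of all probe sets rose. At an unadjusted p below 0.05, 109 members were lower at 1% oxygen, 81 at 4% and 120 at 8%, against 7.81%, 4.7% and 6.71% of all probe sets, and no member was higher, against 4.76%, 5.11% and 6.86%. All 48 h arrays lay below all 2 h arrays in 124, 126 and 130 members, which is 82.1%, 83.4% and 86.1% of them, against 22.6%, 16.1% and 11.4% of all probe sets. Across the 3 lowered levels together, all 7 arrays of 48 h lay below all 12 arrays of 0.5 and 2 h in 53 members (35.1%), against 1.85% of all probe sets.

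**Figure D2:**
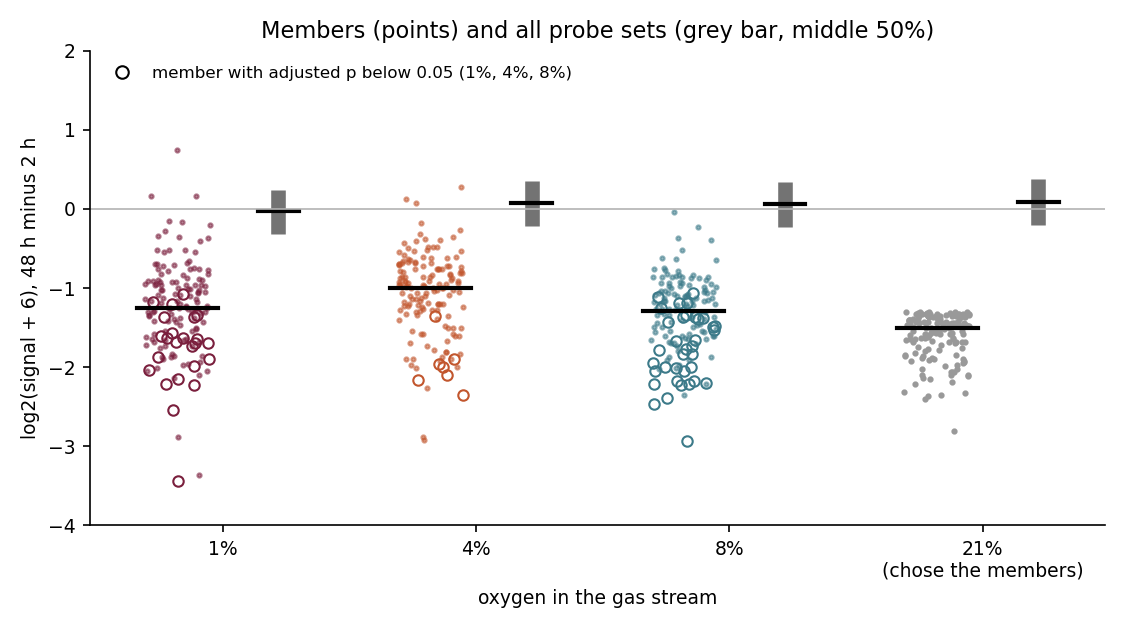
Difference of log2(signal + 6) between 48 h and 2 h at each oxygen level, with 1 point per member (rings mark members with an adjusted p below 0.05), the members' median as a black line, and the median and middle 50% of all probe sets as a line on a grey bar. The members' medians are -1.25, -1.0 and -1.29 at 1%, 4% and 8% oxygen and -1.51 in air, the contrast that chose them.

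These counts depended on single arrays, and so did the share of all probe sets called lower. At 1% oxygen no member passed in limma without array A of 48 h, where the median difference was -0.59 and 42 members were lower at an unadjusted p below 0.05. Without array F of 48 h the median was -1.91. None passed without array E of 2 h (72 lower unadjusted) or without array F of 2 h (81 lower unadjusted). At 4% oxygen fewer than the 7 passed without array B of 48 h or without either array of 2 h. The median there ran from -1.13 to -0.96 over the 4 fits that left out 1 array. At 8% oxygen fewer than the 36 passed without either array of 2 h. Of the 48 h arrays, 24 fell without array A, 22 without array F and 19 without array B. The shares of all probe sets lower in these 3 fits were 0.4%, 0.466% and 0.289%. Of the 24, 7 and 36 calls at 1%, 4% and 8% oxygen, 0, 0 and 2 held in limma whichever array was left out. Within letter F alone, the members' median difference was -0.62, -1.01 and -1.17 at 1%, 4% and 8% oxygen. It was -1.38 in air, the contrast that chose the members. With the replicate letter as a fixed block in limma, 62, 88 and 85 members fell, against 5.68%, 5.78% and 4.68% of all probe sets. With that block 38 members fell at none of the 3 levels, against 89.9% of all probe sets. The letter does not pair all arrays at 2 h. Only letter F holds arrays of 48 h and of earlier times, so the fixed block ties 48 h to 2 h through the F arrays alone.

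By the test, 5 members fell at all 3 lowered levels, 13 at exactly 2, 26 at 1 and 107 at none, against 0.0814%, 0.163%, 1.1% and 98.7% of all probe sets. The 5 were ATGSTF13, AT5G07030, AT2G40480, AT3G51720 and AT4G24780. At 1% oxygen each of these 5 calls held without array F of 48 h and was lost without array A of 48 h or either 2 h array, and at 4% AT2G40480 lost its call whichever of the 4 arrays was left out. ATGSTF13 (chromosome 3, 23217233 to 23218312) encodes a phi class glutathione S-transferase, an enzyme that joins glutathione to other molecules. Its 48 h signals were 12.7 and 16.3 at 1%, 12.9 and 15.9 at 4%, 18.9, 29.5 and 16.2 at 8% and 11.9, 20.7 and 20.3 in air. After 2 h it had 53.4 and 63.3 at 1%, 84.5 and 57.5 at 4%, 71.9 and 56.0 at 8% and 90.4, 57.4 and 55.0 in air. At the lowered oxygen levels all 7 arrays of 48 h lay below all 6 arrays of 2 h. After 48 h both 4% arrays lay below the 3 of 8%, and every other pair of oxygen levels overlapped at both times. The log2 differences were -1.65 ± 0.30, -1.90 ± 0.30 and -1.37 ± 0.27 at 1%, 4% and 8% oxygen (SE, limma adjusted p = 0.0076, 0.00349 and 0.0151). The highest adjusted p when 1 array was left out was 0.106, 0.157 and 0.271.

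AT5G07030 (chromosome 5, 2183328 to 2185972) had 81.0 and 128, 96.1 and 120.1 and 119, 116 and 125 after 48 h at 1%, 4% and 8% oxygen, against 481 and 509, 425 and 468 and 511 and 624 after 2 h. Its 48 h arrays lay between 81.0 and 128 at all 3 levels, below every 2 h array, and its log2 differences were -2.21, -1.99 and -2.18, with an adjusted p of up to 0.106, 0.249 and 0.0586 when 1 array was left out. AT4G24780 (chromosome 4, 12770221 to 12772479) had 207, 234 and 289.9 after 48 h at 8% oxygen, against 1139 and 1080.3 after 2 h, a log2 difference of -2.17 ± 0.28 (SE, limma adjusted p = 0.000312). The smallest adjusted p among the members was that of AT1G03820 (chromosome 1, 959790 to 960916) at 8% oxygen. It had 38.6, 23.4 and 39.6 after 48 h, against 191 and 209 after 2 h, a log2 difference of -2.40 ± 0.29 (SE, limma adjusted p = 0.000174). The calls of AT1G03820 and AT4G24780 at 8% oxygen were the 2 that held whichever of the 5 arrays was left out. At 4% oxygen AT1G03820 held in 1 of 4 such fits (highest limma adjusted p = 0.133), and AT4G24780 held in 3 of 4 at 4% (0.0529) and 1 of 4 at 1% (0.468). At 1% oxygen AT1G03820 had 47.6 and 36.6 after 48 h, against 102 and 89.1 after 2 h. Its 2 h level at 1% was below that of every other 2 h group, and its log2 difference of -1.09 ± 0.31 did not pass (limma adjusted p = 0.0962).

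**Figure D3:**
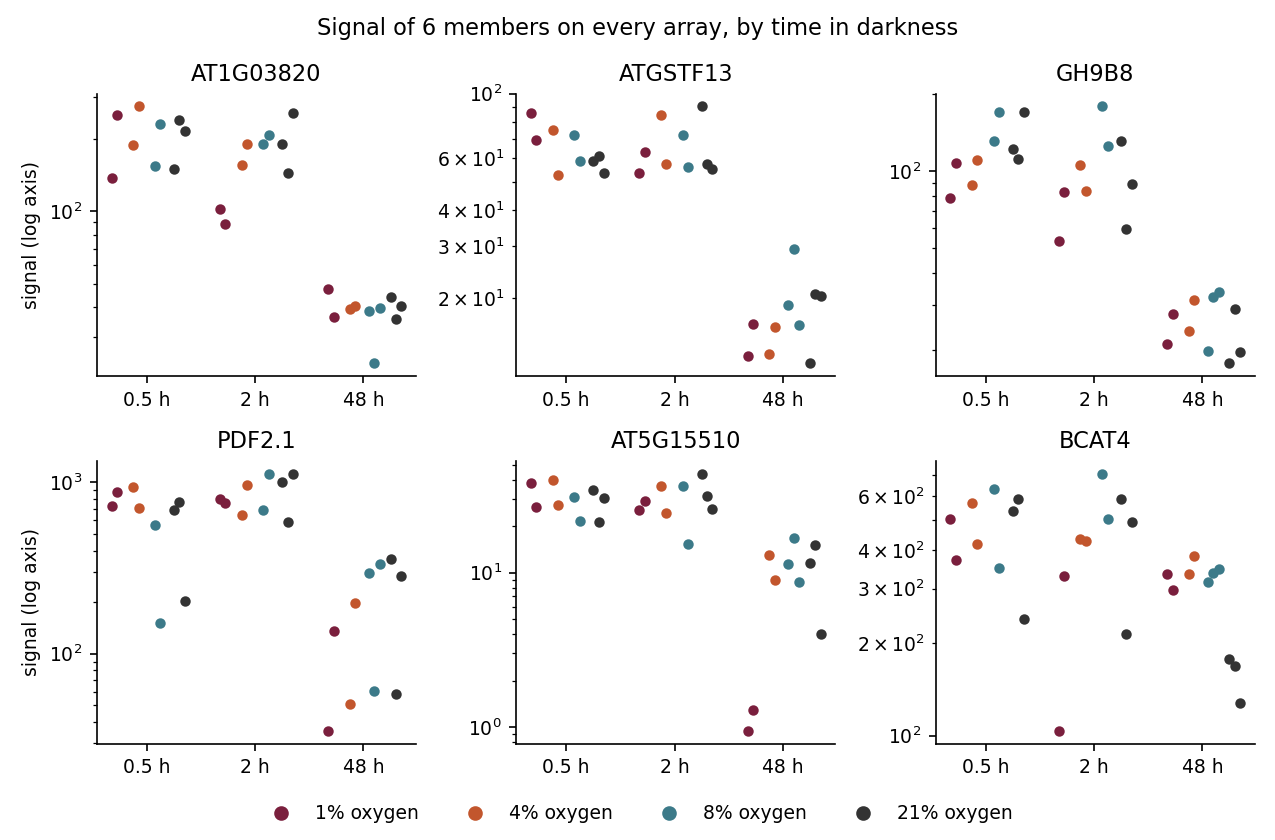
Signal of 6 members on each of the 28 arrays (log axis), grouped by time in darkness and coloured by oxygen level from 1% to 21%. AT1G03820, ATGSTF13 and GH9B8 are low on all 10 arrays of 48 h, AT5G15510 is lowest on the 2 arrays of 1% oxygen at 48 h (0.946 and 1.29), and BCAT4 is lower on the 3 arrays of air at 48 h than on the 7 arrays of lowered oxygen.

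The 29 members with a symbol were grouped by role after their values were seen. The cell wall and growth group had 8 members, all lower after 48 h at each lowered level, with median differences of -1.33, -1.54 and -1.92 at 1%, 4% and 8% oxygen. By the test 1, 1 and 6 of the 8 fell, against 0.807%, 0.111% and 0.747% of all probe sets. At 1% oxygen the median was -0.88 without array A of 48 h and -1.72 without array F. The endoglucanase GH9B8 had 19.8, 32.3 and 33.7 after 48 h at 8% oxygen, against 178 and 125 after 2 h, a log2 difference of -2.19 ± 0.31 (SE, limma adjusted p = 0.000823, which was 0.0589 without array C of 2 h). The expansin EXPA4 had 110.4, 87.6 and 168 after 48 h, against 599 and 770.4 after 2 h, at -2.47 ± 0.42 (SE, limma adjusted p = 0.0051, which was 0.0852 without array C of 2 h). The endoglucanase GH9C2 fell at 4% (-2.10) and 8% (-2.21), without holding at 4% in any fit that left out 1 array (highest adjusted p 0.45) or at 8% without array C of 2 h (0.226). At 1% oxygen GH9C2 had 82.1 and 77.6 after 48 h, against 140.3 and 141 after 2 h (-0.77, adjusted p = 0.496), and its 2 h arrays at 1% were the lowest of the 2 h arrays. XTH20, a xyloglucan endotransglucosylase/hydrolase, fell at 1% (-1.63, adjusted p 0.502 without array A of 48 h) and 8% (-1.83, 0.179 without array C of 2 h). GH9B13, an endoglucanase, fell at 8% (-1.73, 0.338 without array C of 2 h).

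TBL36, of a family known for adding acetyl groups to wall polysaccharides, fell at 8% oxygen (-1.48), a call lost whichever of the 5 arrays was left out, and had -0.20 at 1% (adjusted p = 0.955). Its 48 h signals were 446 and 268 at 1%, 349.7 and 220.0 at 4% and 195, 197 and 276 at 8%, against 154, 170.2 and 196 in air. The 1% and 4% arrays lay above the air arrays, and at 8% array A (195) lay within them. SKU5, a surface glycoprotein needed for straight root growth, had -1.41, -0.91 and -1.73 at 1%, 4% and 8% oxygen, and EXPA15 had -1.47, -1.51 and -2.01, without passing at any level. Among all expansins with a probe set of their own, 12 of 18 listed, 1 fell at 1%, 1 at 4% and 2 at 8% oxygen, and none rose. At 1% and 4% that gene was EXPB3, which the rule left out. Over all probe sets 0.807%, 0.111% and 0.747% fell at 1%, 4% and 8% oxygen, and 0.451%, 0.126% and 0.747% rose.

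**Figure D4:**
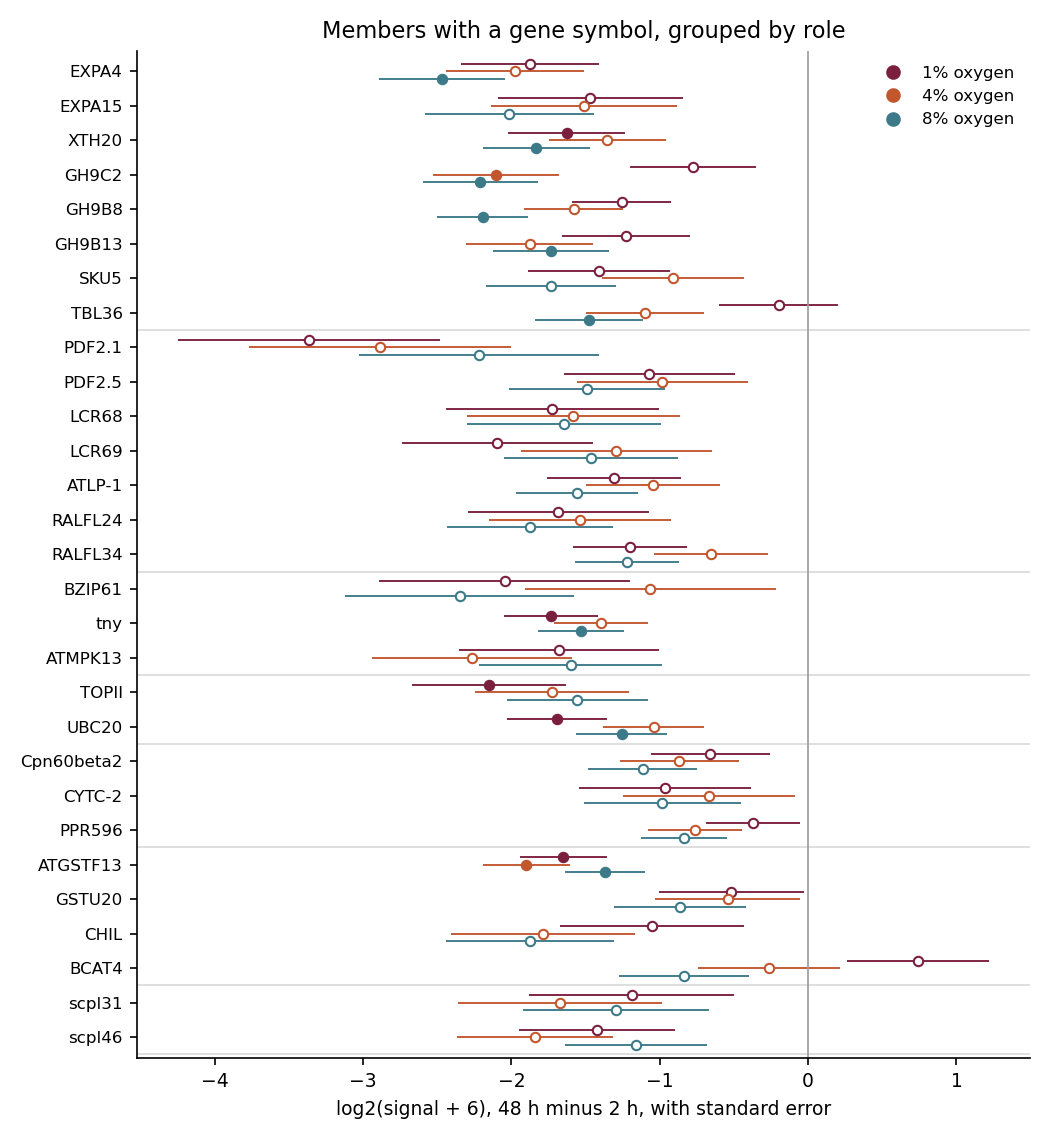
Difference of log2(signal + 6) between 48 h and 2 h with its standard error for the 29 members with a symbol, at 1%, 4% and 8% oxygen, with filled points for an adjusted p below 0.05. From top to bottom the blocks are cell wall and growth, small secreted proteins, regulators, cell division, organelles, metabolism and carboxypeptidases. Every point lies below 0 except BCAT4 at 1% oxygen (0.74).

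The small secreted proteins (7 members) were all lower after 48 h at each lowered level, with median differences of -1.68, -1.29 and -1.56, and none passed the test. At 1% oxygen the median was -0.52 without array A and -2.68 without array F. They were the defensins PDF2.1 and PDF2.5, the related cysteine-rich peptides LCR68 and LCR69, the thaumatin-like ATLP-1, and RALFL24 and RALFL34, peptides of the rapid alkalinization factor family. PDF2.1 had 35.5 and 135 at 1%, 51.2 and 198 at 4%, 297, 60.9 and 333 at 8% and 356, 58.5 and 286 in air after 48 h. Its 2 h signals lay between 591 and 1123 at all levels. Array B was the lowest of its group at 4%, 8% and 21% oxygen, at 51.2, 60.9 and 58.5. LCR68 had 271 and 1524 on arrays A and F of 1% oxygen after 48 h, against 2173 and 2113 after 2 h. Array F was the highest LCR68 array of its group at every oxygen level after 48 h. PDF2.1 (chromosome 2, 538250 to 539123), LCR68 (chromosome 2, 539898 to 540707) and LCR69 (chromosome 2, 528179 to 529186) are neighbours in TAIR10.1 and similar in sequence, so their probe sets may share signal.

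Among the regulators, tny, an AP2 domain transcription factor, fell at 1% and 8% oxygen. It had 28.2 and 26.9 after 48 h at 1%, against 100.5 and 111 after 2 h (-1.73 ± 0.32, SE, limma adjusted p = 0.00941), and at 8% it fell by 1.53 on the log2 scale. The highest adjusted p when 1 array was left out was 0.105 at 1% and 0.141 at 8%. At 4% oxygen its difference was -1.40 (adjusted p = 0.0692). BZIP61 had -2.04, -1.06 and -2.35, and the mitogen-activated protein kinase ATMPK13 -1.68, -2.27 and -1.60, without passing at any level. Cell division was represented by TOPII and UBC20. TOPII, the topoisomerase that untangles replicated DNA, had 10.8 and 28.2 after 48 h at 1% oxygen, against 79.3 and 127 after 2 h, and fell there (-2.15 ± 0.52, SE, limma adjusted p = 0.0457). UBC20, a ubiquitin-conjugating enzyme that acts on mitotic cyclins, fell at 1% (-1.69) and 8% (-1.26). Without array A of 48 h, TOPII and UBC20 had limma adjusted p of 0.53 and 0.255 at 1% oxygen, and UBC20 had 0.391 at 8% without array C of 2 h.

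The organelle group showed the smallest median differences of the role groups with 3 or more members, -0.66, -0.76 and -0.98, and none of its 3 members passed. At 1% oxygen its median was 0.02, with 1 of 3 members below 0, without array A, and -1.07 without array F. Cpn60beta2, a plastid chaperonin subunit, had -0.66, -0.87 and -1.11. CYTC-2, a mitochondrial cytochrome c, had -0.97, -0.67 and -0.98, and PPR596, a mitochondrial pentatricopeptide repeat protein, -0.37, -0.76 and -0.84. In the metabolism group, the tau class glutathione S-transferase GSTU20 had -0.52, -0.54 and -0.87 and CHIL, a chalcone isomerase-like protein that aids flavonoid synthesis, -1.05, -1.79 and -1.87. The carboxypeptidase-like scpl31 had -1.19, -1.67 and -1.29, and scpl46 -1.42, -1.84 and -1.16. None of these passed. Of the 122 members known by locus only, 19, 5 and 27 fell at 1%, 4% and 8% oxygen, against 0.807%, 0.111% and 0.747% of all probe sets. The median differences of the 122 were -1.21, -0.95 and -1.22. At 1% oxygen the median was -0.57 without array A and -1.915 without array F.

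The second question was whether the members' level after 48 h differed among the lowered oxygen levels. No member passed in limma between 1% and 8% oxygen, where 0% of all probe sets were lower and 0.0148% higher, and 3 were lower and 2 higher at an unadjusted p below 0.05, against 3.12% and 0.969% of all. None passed between 4% and 8% (0% lower and 0.0148% higher over all), with 0 lower and 3 higher unadjusted, against 0.725% and 1.67% of all. None passed between 1% and 4% (0.0074% lower and 0% higher over all), with 10 lower and 0 higher unadjusted, against 4.18% and 0.629% of all. The members' median differences were -0.11, 0.15 and -0.23 in these comparisons, against -0.11, 0.01 and -0.12 over all probe sets. With the replicate letter as a block they were -0.09, -0.06 and 0.01. Between arrays of the same letter, the members' median was -0.44 for A and 0.34 for F between 1% and 8%. It was -0.03 for B and 0.09 for F between 4% and 8%, and 0.22 for F between 1% and 4%. Between 1% and 8% oxygen the median was 0.49 without array A of 1% oxygen and -0.65 without array F. Between 1% and 4% it was 0.38 without array A and -0.91 without array F. Interactions between time and oxygen level, added after the other tests were laid down, passed for no member, and their medians were 0.05 for 1% against 8%, 0.25 for 4% against 8% and -0.21 for 1% against 4%. Over all probe sets 0.0074%, 0% and 0.0074% were lower and 0% higher in these interactions, and 8, 3 and 5 members had an unadjusted p below 0.05, against 311, 144 and 328 of the 13513 probe sets.

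AT5G15510 (chromosome 5, 5033933 to 5036824) differed most in p between 1% and 8% oxygen after 48 h. It had 0.946 and 1.29 at 1%, 12.9 and 9.0 at 4% and 11.3, 16.7 and 8.64 at 8%, against 11.5, 15.2 and 3.98 in air. Both 1% arrays lay below every other 48 h array and below the pseudocount. The difference between 1% and 8% was -1.33 ± 0.35 (SE, limma adjusted p = 0.665), and a block on the replicate letter gave -1.17 (adjusted p = 0.0185). Against 2 h at 1% oxygen, where its signals were 25.6 and 29.0, it fell by 2.23 on the log2 scale (limma adjusted p = 0.00521, and 0.0617 without array A of 48 h), the smallest adjusted p of a member at that level. PDF2.1 was the other member that passed between 1% and 8% with the letter as a block (-2.02, adjusted p = 0.0225), where 0.34% of all probe sets were lower.

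The third question was how each lowered oxygen level changed the members' level after 48 h relative to normal air. A member had to be low on the 48 h arrays of air to be chosen, so these values are a description. Relative to air after 48 h, the members' median difference was 0.06 at 1%, 0.29 at 4% and 0.19 at 8% oxygen, against -0.11, 0.01 and 0.00 over all probe sets. Of the 151, 89, 124 and 118 lay above air, 76 lay above it at all 3 levels (17.2% of all probe sets) and 9 below it at all 3 (25.8%). No member passed an adjusted p of 0.05 in limma. Over all probe sets 0.0222% were lower and 0.074% higher at 1%, 0% and 0.037% at 4%, and 0% and 0% at 8%. Unadjusted, 3 were lower and 7 higher at 1%, 0 and 12 at 4%, and 0 and 3 at 8%. The shares over all probe sets were 3.92% and 1.29% at 1%, 1.13% and 2.12% at 4%, and 0.881% and 0.918% at 8%.

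The 1% median against air turned with the array, to 0.70 without array A and -0.47 without array F. Arrays of the same letter deviated together at 48 h, so each lowered array was also set against the air array of its letter. The members' median was -0.23 for A and 0.53 for F at 1% oxygen, 0.09 for B and 0.31 for F at 4%, and 0.20 for A, 0.12 for B and 0.21 for F at 8%. The medians over all probe sets lay between -0.03 and 0.02 in these 7 pairs. At 1% oxygen 109 of 151 members were below air on array A, as were 56% of all probe sets, and 125 were above it on array F, as were 52.9%. At 8% oxygen 110, 92 and 107 members were above air on arrays A, B and F, against 54.7%, 51.3% and 49.1% of all. Above air in every letter were 33 members at 1% (21.9%), 67 at 4% (44.4%) and 49 at 8% (32.5%), against 23.5%, 25.4% and 14.7% of all probe sets. Below air in every letter were 17 (11.3%), 14 (9.27%) and 7 (4.64%), against 26.7%, 29.1% and 11.9% of all.

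**Figure D5:**
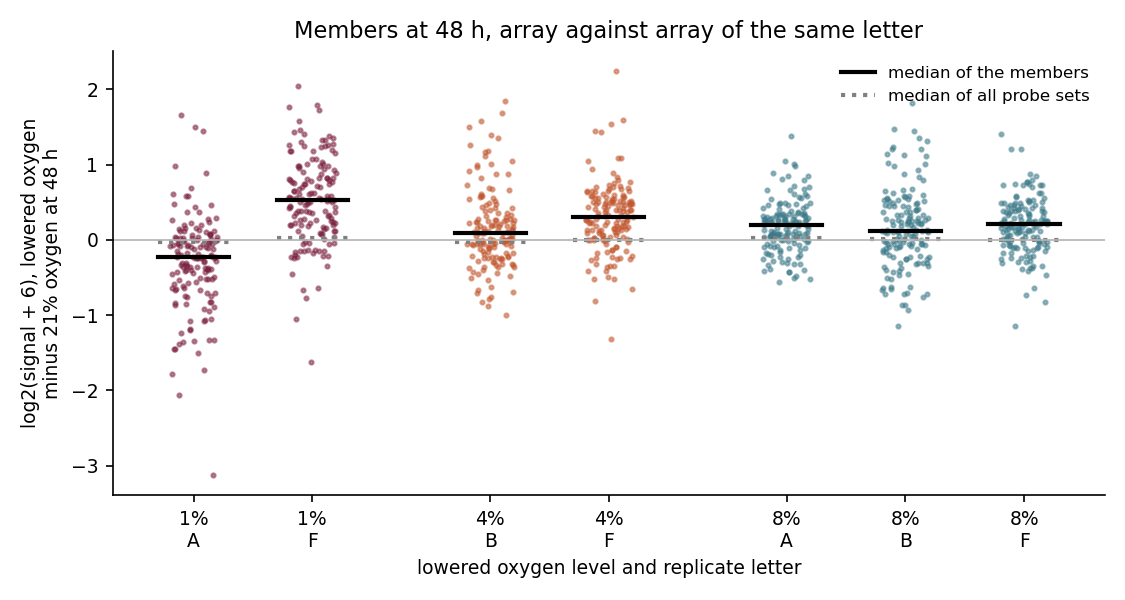
Difference of log2(signal + 6) between lowered oxygen and air after 48 h for the 151 members (points), each array set against the air array of the same replicate letter, with the members' median (black line) and the median of all probe sets (dotted). The members' medians are -0.23 and 0.53 for letters A and F at 1% oxygen, 0.09 and 0.31 for B and F at 4%, and 0.20, 0.12 and 0.21 for A, B and F at 8%.

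BCAT4, the aminotransferase that opens the chain elongation of methionine in glucosinolate synthesis, lay above air at all 3 lowered levels after 48 h. Its 48 h signals were 334 and 297 at 1%, 335 and 383 at 4% and 317, 338 and 347 at 8%, against 177, 169 and 127 in air (chromosome 3, 6846969 to 6849582). All 7 lowered arrays lay above all 3 air arrays. The differences were 0.98 ± 0.44, 1.17 ± 0.44 and 1.07 ± 0.39 (SE), with no adjusted p under 0.05 (limma adjusted p = 0.928, 1 and 1). With the letter as a block they were 0.98, 1.20 and 1.07 (limma adjusted p = 0.00986, 0.00808 and 0.0574). Nothing is read from these p values, since the air arrays of 48 h chose the members. Between 48 h and 2 h, on arrays that had no part in the choice, BCAT4 had 0.74 at 1%, -0.27 at 4% and -0.83 at 8% oxygen, and passed at none. Its 2 h signals at 1% oxygen were 104 and 330.4, lower on array E.

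With the letter as a block, 6 members passed against air at 1% oxygen, where 1.47% of all probe sets were lower and 0.807% higher. All calls against air are a description, since the air arrays of 48 h chose the members. AT5G15510 (-0.96) and PDF2.1 (-2.01) were lower, and BCAT4, AT2G21580 (1.12), AT4G12600 (0.56) and AT3G15357 (0.90) were higher. At 4% oxygen BCAT4 alone passed with the block, where 0.0296% of all were lower and 0.141% higher, and at 8% none did. AT2G21580 had the largest mean difference between 1% oxygen and air, 1.16 ± 0.44 (SE), with 373 and 841 on arrays A and F, against 185, 215 and 376 in air. Array A (373) lay within the air arrays and array F above them. The other members high at 1% oxygen were AT5G12110 (1.12), AT1G23100 (1.09), TBL36 (0.98), AT3G15357 (0.93), AT4G35200 (0.86) and BZIP61 (0.81). The lowest were PDF2.1 (-1.31), AT5G15510 (-1.12), AT3G02640 (-0.88), AT4G15830 (-0.81), LCR69 (-0.76), AT4G02800 (-0.76), AT1G73120 (-0.75) and AT1G50060 (-0.72).

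By role, the 3 organelle members were above air at each lowered level after 48 h, with medians of 0.52, 0.36 and 0.24, and at 1% the median was 0.91 without array A and -0.06 without array F. Both cell division members were below air at 1% oxygen (median -0.48) and above it at 4% (0.22). At 1% their median was -0.05 without array A and -0.90 without array F. TOPII had 10.8 and 28.2 at 1% oxygen, against 37.0, 48.5 and 13.7 in air, so its groups overlapped. The cell wall group had medians of -0.03, 0.19 and 0.16 and the small secreted group 0.00, 0.35 and 0.00. At 1% oxygen these were 0.31 and 0.74 without array A, and -0.44 and -0.82 without array F.

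At 0.5 and 2 h the members' medians lay within 0.25 of those in air on the log2 scale. After 0.5 h, on arrays that had no part in the choice, the members' median difference from air was 0.19 at 1%, 0.09 at 4% and -0.06 at 8% oxygen, against 0.02, 0.00 and -0.02 over all probe sets. No member passed in limma, where 0.0518%, 0.0444% and 0.0148% of all probe sets were higher and 0% lower. Unadjusted, only AT1G18550 had a p below 0.05, lower at 8%, against 237, 194 and 75 of the 13513 probe sets at 1%, 4% and 8%. After 2 h the medians were -0.25, -0.18 and -0.11 at 1%, 4% and 8% oxygen, against -0.02, 0.02 and 0.01 over all probe sets. The air arrays of 2 h are among those that chose the members. No member passed after 2 h in limma, where 0.34%, 0.126% and 0.0222% of all probe sets were higher and 0% lower. At an unadjusted p below 0.05, 11, 1 and 1 members were lower, against 213, 39 and 27 of the 13513 probe sets. Higher were 0, 0 and 1 members, against 263, 111 and 66 probe sets.

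The closest comparison was the raised set, the genes higher after 48 h than after 2 h in air. These 100 probe sets were chosen by the mirrored rule on the same arrays. After 48 h against 2 h, 24, 7 and 36 of the 151 members fell at 1%, 4% and 8% oxygen, and 20, 12 and 37 of the 100 raised genes rose. Of all probe sets 0.807%, 0.111% and 0.747% fell, and 0.451%, 0.126% and 0.747% rose. The raised set's medians were 1.21, 1.34 and 1.52. Relative to air after 48 h, the members' medians of 0.06, 0.29 and 0.19 stood beside -0.28, -0.19 and -0.11 for the raised set. On arrays A and F of 1% oxygen the members' medians against air were -0.23 and 0.53, and those of the raised set -0.01 and -0.48. Members had to be low and raised genes high on the same 48 h air arrays. The choice itself therefore favours members above air and raised genes below it, so nothing is read from the opposite signs. The difference between the sets was not tested.

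The members lie on all 5 chromosomes, with 39, 21, 32, 27 and 32 on chromosomes 1 to 5 of TAIR10.1. Of the members, 16 (10.6%) start within 20000 bases of another member, and 5.3% of the other nuclear probe sets tested start within that distance of one. Among the other lists followed, the glucosinolate list had BCAT4 as its only named gene. None of the 5 named genes of darkness and sugar starvation was a member. After 48 h against 2 h none of these 5 fell at any lowered level, and 0, 0 and 2 rose at 1%, 4% and 8% oxygen. Over all probe sets 0.807%, 0.111% and 0.747% fell, and 0.451%, 0.126% and 0.747% rose. GI, a clock gene and the only named one of its list, rose at 8% oxygen (2.997, limma adjusted p = 0.0403) and had 1.51 and 2.75 at 1% and 4%. DFR, a flavonoid enzyme and the only named gene of the list of light response and flavonoid genes, had 0.16, 0.29 and 0.08 and passed at none. The lists of nitrate genes and aquaporins had no gene with a named probe set of its own.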

How the data were processed

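Per the submitters' processing notes the values came from MAS5, whose version is not given in the sources used here. The deposited values are linear intensities per probe set, and in each array the mean signal, trimmed by 2% at each end, is 100, a scaling by the authors that was kept. Of 22810 probe sets, 64 controls, 503 annotated to several genes and 8730 to none were left out, and 13513 were tested. Names and positions come from the platform annotation and RefSeq's TAIR10.1 table, in which all 151 members matched, and no sequences were used here. Signals were analysed as log2(signal + 6), 6 being near the 20th percentile of all signals (6.2).

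All 28 arrays entered 1 limma fit (limma 3.58.1, R 4.3.3) with a mean for each group, an intensity trend, 16 residual degrees of freedom and two-sided tests, and p-values were adjusted by Benjamini-Hochberg over all 13513 probe sets of a comparison at a threshold of 0.05. The code was tested on simulated data. The members, the lists, the tests and the rule for named genes (largest falls in air, extremes of 1% oxygen against air, smallest adjusted p, nearest to the threshold, list genes) were chosen with earlier results of these data known. Role groups and interactions were added later, after values were seen. Same-letter arrays correlated after removing group means at 0.5 h (0.457 to 0.718, 6 of 6 pairs above 0.1) and 48 h (0.328 to 0.728, 12 of 12), and at 2 h in 5 of 8 pairs (-0.117 to 0.689), so the letter was taken to pair arrays at 0.5 and 48 h. Alternatives were quantile normalization, median centring, pseudocounts of 1.5 and 24, leaving out the dimmest 40%, no intensity trend, the 2 h and 48 h arrays alone, the letter as a fixed or random block, letter F alone and each array left out in turn. Where that left 1 array in a group, it was assumed to vary like the other groups.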

Additional observations from a re-analysis of the deposited data

How the results depend on the processing

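Of 217 values recomputed under other settings, 197 stayed within 1.5 times the count or within 0.29, the SD of the members' median between replicates, and 20 did not. For 48 h against 2 h, the members' median became -0.91 at 1% and -0.99 at 8% oxygen with a pseudocount of 24, and -0.62 at 1% for letter F alone. Members that fell became 13 at 4% without the dimmest 40%, and 11 at 1% and 19 at 8% with the 2 h and 48 h arrays alone. Shares over all probe sets were not computed for these settings. The replicate block on the letter, fixed, gave 62, 88 and 85 members that fell at 1%, 4% and 8% (5.68%, 5.78% and 4.68% of all probe sets), with 23 of 24, 7 of 7 and 34 of 36 of the members called without it among them, and a median of -0.90 at 1%, and 38 members fell at none of the 3 levels with it. As a random replicate block (correlation 0.63) it gave 76, 85 and 102. Shares over all probe sets were not computed for the random block, so its counts are not read as a result about the members. After 48 h the fixed block called 2 members between 1% and 8% oxygen, 6 between 1% and air and 1 between 4% and air, and the random block 1 between 1% and 8% and 3 between 1% and air. The letter does not pair all arrays at 2 h, and the fixed block ties 48 h to 2 h through the F arrays alone. The cause of these changes was not tested.

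Leaving out 1 array at a time, members that fell ran from 0 to 82 at 1%, 0 to 7 at 4% and 2 to 24 at 8% oxygen, and medians from -1.91 to -0.59, -1.13 to -0.96 and -1.36 to -1.19. Medians after 48 h ran from -0.65 to 0.49 (1% against 8%), -0.91 to 0.38 (1% against 4%) and -0.47 to 0.70 (1% against air), with 0 to 1, 0 to 0 and 0 to 1 members called. The 1% against 8% median also turned to 0.07 with centring and 0.03 with quantile normalization. Of the named genes called in 48 h against 2 h, none changed direction in 333 recomputations under the other settings and 23 missed the threshold, while of 166 that left out 1 array 96 missed it and none changed direction. The rule itself would choose 256 members with a pseudocount of 1.5, 52 with 24, 168 with quantile normalization and 173 with centring, with 151, 52, 146 and 145 of the present members among them. With 2 or 3 arrays a group, a missed threshold does not show equal levels.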
